A study of Gallus gallus with 4 samples.

Results

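This account covers 72 chicken genes of the nucleolus, of ribosome assembly and of the DDX and DHX families of RNA helicases, out of 13009 genes with 1 symbol on the array. They were chosen by symbol: every gene beginning with POLR1 (RNA polymerase I), or with DDX, DHX, UTP or NOP followed by a digit, and a set of nucleolar genes listed by name. BOP1 and FBL, also on that list, had no probe set with that single symbol and were not analysed here. For each gene the probe set with the highest mean signal was used. Of the 72 members, 67 were bright enough to be tested among 8026 genes, and the 5 that were not are DDX4, DDX25, DDX43, DDX60 and DHX58.

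The cells were DT40, a chicken B cell lymphoma line, in which the ARP6 gene (symbol ACTR6) had been disrupted with hisD and puro resistance cassettes and Arp6 came from a tetracycline-responsive transgene. Arp6 is a nuclear actin-related protein that belongs to the remodelling complex SRCAP, known for loading H2A.Z onto chromatin. The 4 groups were conditional knockout cells at day 0, without tetracycline (the control, Arp6 on), and the same line when tetracycline (2 ug/ml) had shut off the transgene for 2, 4 and 6 days. There was 1 array of polyadenylated RNA per day, so no value carries a replicate error, no test between single days can be made, and Arp6, tetracycline and time in culture cannot be told apart. Whether the line is a single clone is not given in the labels.

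Ribosomes are built in the nucleolus, where RNA polymerase I transcribes the long precursor of the ribosomal RNAs. Small nucleolar ribonucleoproteins (snoRNPs) modify and fold that precursor, the small subunit processome (with the UTP proteins) and the large subunit factors cut it and assemble it with ribosomal proteins, and helicases of the DEAD-box (DDX) and DEAH-box (DHX) families remodel the RNA at many steps. Other DDX and DHX proteins work in splicing, in mRNA export and decay, in translation, or as sensors of foreign RNA. In growing lymphoid cells this machinery is highly active, because making ribosomes sets how fast a cell can make protein.

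Values below are scaled signals, the deposited intensities shifted so that the median bright probe set was equal on all arrays, and log2 ratios are to day 0. Background is the 95th percentile of each array's controls without a spiked target, a scaled signal of 25.4, 24.9, 32.1 and 45.9 at days 0, 2, 4 and 6. A fold whose dimmer signal lay below background is given as a lower bound ("at least"). The targeted gene followed the labels: ACTR6 had a scaled signal of 7002 at day 0 and 318, 331 and 383 at days 2, 4 and 6 by its brighter probe set. Of 10 B cell markers on the array, 10, 10, 10 and 9 were above background at days 0, 2, 4 and 6. Of 9 fibroblast and endothelial markers 4, 3, 6 and 4 were above background, with a summed scaled signal of 197, 246, 535 and 1339 and CDH5 below background throughout, and of 7 T cell markers 2, 3, 2 and 2 were, with CD3E, CD4, CD28 and LCK below background throughout. The summed scaled signal was 15948, 14105, 13565 and 11868 for the B cell markers and 2473, 2117, 1362 and 1025 for the T cell markers. The part of these markers in the results below was not tested.

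Most of the ribosome-building and helicase genes stayed close to day 0 on every later array. In these bulk samples, fewer cells expressing a gene and less RNA per cell cannot be told apart. Counted with dim signals set to a common floor of 19.4, 2 of 67 members were at least 2-fold higher at day 2 and 0 at least 2-fold lower, where 2.42% and 2.97% of all tested genes were. The counts were 2 higher and 1 lower at day 4, where 5.77% and 5.12% of all genes were, and 2 higher and 1 lower at day 6, where 8.48% and 8.35% were. These few genes are POLR1B (higher on all 3 later days), POLR1D (at days 2 and 4), DDX11 (higher at day 6), DDX18 (lower at day 4) and DDX59 (lower at day 6). All but DDX59 had a signal below background on at least 1 array, and DDX59 was near background at day 6 (58.6 against 45.9). With the background of each array as the bound in place of the floor, which was chosen after seeing the data, POLR1D missed 2-fold at day 2. Then 1 member was higher at day 2, where 1.93% of all genes were, and the other counts were as given. With only the 63 members above background on every array, a count chosen after seeing the data, 0 were 2-fold different at days 2 and 4, and DDX59 alone was at day 6. This restriction leaves out dim members by construction. It was not applied to all genes, so the count has no matching share. A looser limit of 1.5-fold added few: 2 members were higher and 0 lower at day 2, where 7.53% and 9.46% of all genes were. At day 4 it took in 3 higher and 6 lower members, where 14.3% and 13.8% of all genes were, and at day 6 4 higher and 6 lower, where 17.4% and 18.1% were. The 4 include POLR1D, which was below background at both days 0 and 6. By bound there were 3, where 16.3% of all genes were. The scaling between arrays moves the 2-fold split late in the series. With the deposited values unscaled 2 members were higher and 11 lower at day 6, and with scaling to the spike-in controls 3 were higher and 0 lower at day 4. The 2-fold share of all genes is not given for these scalings, so these counts cannot be set against it. All genes shifted too, to a median log2 ratio of -0.48 unscaled at day 6 and 0.37 with spike-ins at day 4.

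The middle of the group lay slightly below that of all genes late in the series. The median log2 ratio of the members was 0.03, -0.11 and -0.11 at days 2, 4 and 6, against -0.01, 0.0033 and -0.0091 for all tested genes. Below day 0 by any amount stood 30, 41 and 42 of the 67 members at days 2, 4 and 6, where 51.5%, 49.6% and 50.7% of all genes did. These counts were 52, 58 and 62 unscaled and 44, 13 and 22 with spike-in scaling, so the sign of a small ratio below holds relative to the median gene only. With the deposited values unscaled the members' medians were -0.14, -0.36 and -0.58, and with spike-in scaling -0.07, 0.25 and 0.11, while all genes moved along with them (-0.17, -0.24 and -0.48 unscaled, and -0.10, 0.37 and 0.21 with spike-ins).

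The members' ratios were also packed more tightly than those of other genes. The interquartile range of their day 6 log2 ratios was 0.43, against 0.80 for all tested genes. Brighter genes had a narrower range in these data, and among genes above the 75th percentile of signal it was 0.41 for 62 members and 0.67 for all 5429 genes. At day 2 these ranges were 0.26 for the members and 0.35 for the genes, and at day 4 0.41 and 0.53. No test of this difference was made.

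**Figure D1:**
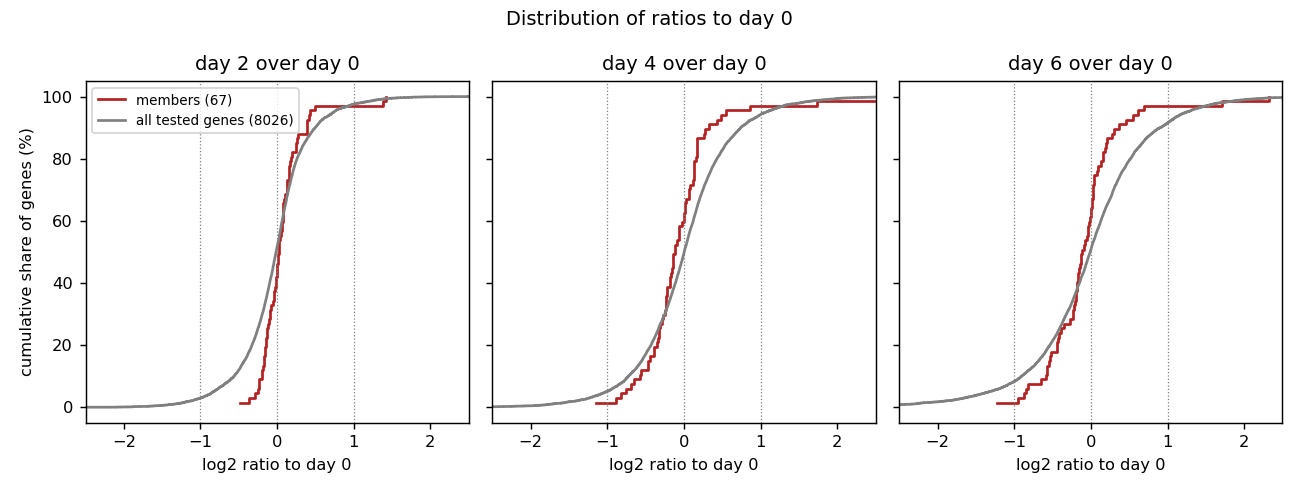
Cumulative share of genes (vertical axis, percent) by log2 ratio to day 0 (horizontal axis) at days 2, 4 and 6, for the 67 tested members and for all 8026 tested genes. The members' curve is the steeper one in each panel, with an interquartile range of 0.43 at day 6 against 0.80 for all genes.

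The plot of ratios by role sets the members out by what they do. The 44 members of ribosome biogenesis had median log2 ratios of 0.03, -0.10 and -0.04 at days 2, 4 and 6. The 23 tested helicases with other or mixed roles had medians of -0.01, -0.15 and -0.23.

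**Figure D2:**
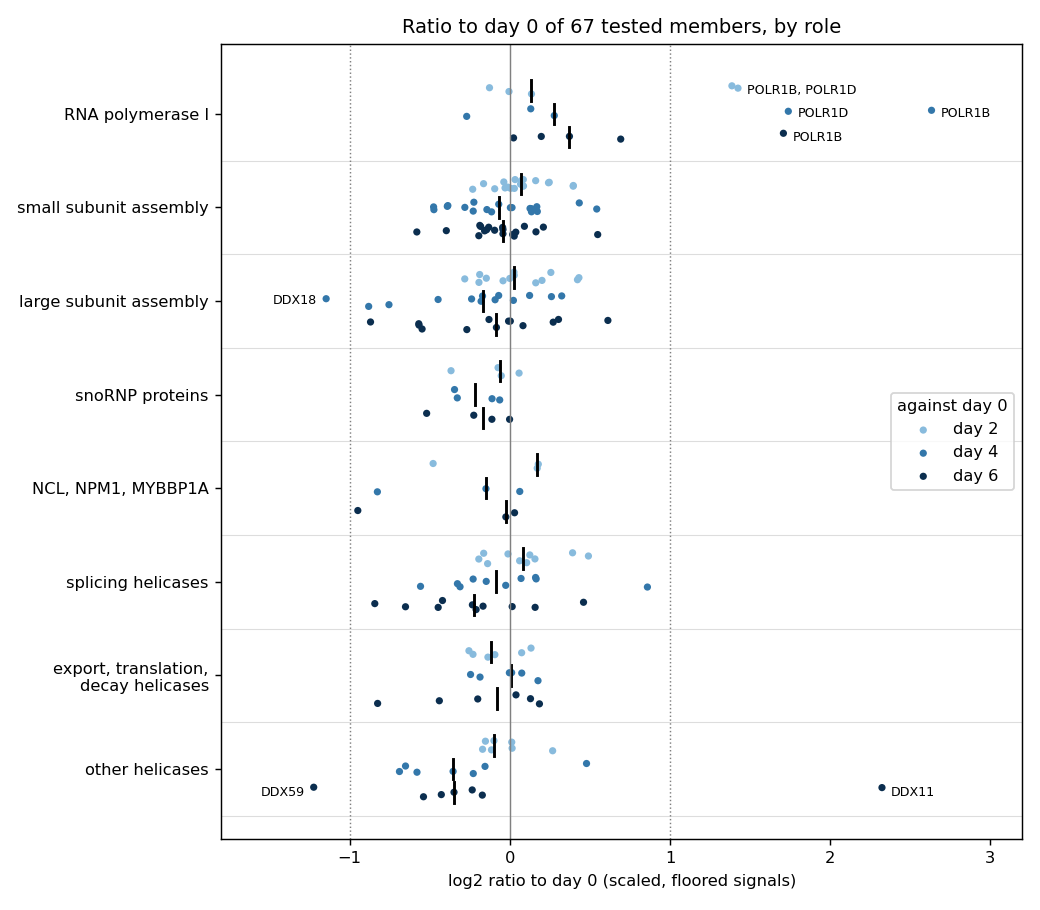
Log2 ratio to day 0 of each tested member (points) at days 2, 4 and 6, by role, with black bars for the median of each role and day and dotted lines at 2-fold. The points lie mostly within the dotted lines, and POLR1B, POLR1D, DDX11, DDX18 and DDX59 fall outside them on at least 1 day.

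RNA polymerase I was represented by 5 members, and POLR1A, POLR1C and POLR1E, which were above background on all arrays, had day 6 log2 ratios of 0.02, 0.20 and 0.37. With the deposited values unscaled these 3 were all below day 0 at day 6. POLR1A, the largest subunit, had scaled signals of 744, 681, 617 and 756 at days 0, 2, 4 and 6. POLR1C, a subunit shared with RNA polymerase III, had 1411, 1550, 1545 and 1617. POLR1E, which helps the enzyme engage its template, had 563, 561, 682 and 728. POLR1A was thus lowest at day 4 and near day 0 at day 6, with log2 ratios of -0.13, -0.27 and 0.02, POLR1C was slightly higher throughout (0.14, 0.13 and 0.20), and POLR1E was higher on the 2 last arrays (-0.01, 0.28 and 0.37). The second probe set of POLR1E stood at 0.37, -0.67 and 0.39, so its day 4 direction depends on the probe set. The second of POLR1A gave 0.06, -0.17 and 0.16.

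POLR1B and POLR1D differed most from day 0, but from very low signals. POLR1B, the second-largest subunit, had scaled signals of 16.0, 52.1, 120.3 and 63.4 at days 0, 2, 4 and 6, and so was below background at day 0 only. Its lower bounds over day 0 were 2.05-fold at day 2, 4.73-fold at day 4 and 2.49-fold at day 6, and it was the 1 member 2-fold higher on all 3 days, where 1.11% of all genes were. POLR1D, a subunit shared with RNA polymerase III, had 10.8, 50.7, 64.8 and 31.4, below background at days 0 and 6, and its lower bounds over day 0 were 1.99-fold at day 2 and 2.55-fold at day 4. Each of these genes has a single probe set on the array, and each passed the filter on low signals through the later arrays, where it was brighter, so a difference was built into their selection.

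By the scaled signals of their brightest probe sets, the 19 members of small subunit assembly kept within 1.5-fold of day 0 on every later array. Their medians were 0.07, -0.07 and -0.04, with a day 6 range of -0.58 to 0.55. Some dimmer kept probe sets went further. The second of UTP23 was 2.02-fold and that of DDX52 1.69-fold higher at day 6, and that of UTP20 was 1.52-fold lower at day 2. BYSL (bystin), a factor of 40S maturation, was the highest of them. Its scaled signals were 585, 770, 852 and 855 at days 0, 2, 4 and 6, log2 ratios of 0.40, 0.54 and 0.55, so that all 3 later arrays were above day 0. NOB1, the endonuclease that makes the mature end of 18S rRNA, had 1995, 2034, 2191 and 2307 (0.03, 0.14 and 0.21). Both its further kept probe sets went the same way, with log2 ratios of 0.11, 0.47 and 0.37 for one and 0.53, 0.51 and 0.32 for the other. RRP9, a protein of the U3 snoRNP, was the lowest member of this class at day 6, with 852, 830, 702 and 570 and log2 ratios of -0.04, -0.28 and -0.58.

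The UTP genes, which code for processome proteins, were all within 1.5-fold of day 0 by their brightest probe sets, some more narrowly than others. UTP18 had scaled signals of 1810, 1852, 1725 and 1928 and UTP11 had 1106, 1036, 1002 and 975 at days 0, 2, 4 and 6. UTP3 and UTP4 were low at day 4 only, with log2 ratios of 0.0047, -0.47 and 0.04 for UTP3 and 0.09, -0.48 and -0.16 for UTP4. UTP14A was also lowest at day 4 (-0.16, -0.39 and -0.19), while UTP20 was highest on that array by its brightest probe set only (0.08, 0.43 and -0.09). UTP15 was highest at day 2 (0.40, 0.0035 and 0.02). UTP23 was lowest at day 6 by its brightest probe set (0.16, -0.22 and -0.40), but its dim second one was highest there. Among the helicases of this class, DDX21, which also acts in RNA polymerase I transcription, stayed at 2025, 2143, 2044 and 2064, and DHX37, a partner of the U3 snoRNP, at 935, 980, 1027 and 907.

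Large subunit assembly (13 members) had medians of 0.03, -0.17 and -0.08, and held genes near day 0 as well as lower ones. PES1, a scaffold of the PeBoW complex that matures 28S rRNA, had scaled signals of 1865, 1632, 1368 and 1259 at days 0, 2, 4 and 6, lower on each array than on the one before. WDR12, its partner in that complex, had 565, 575, 616 and 517, without such a course. The log2 ratios at day 6 were -0.57 for PES1 and -0.13 for WDR12. The second probe set of PES1 stood at 0.37, 0.02 and 0.14 at days 2, 4 and 6 and the third at 0.11, -0.36 and -0.37, so that its 3 kept probe sets did not give a single direction.

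Of the 7 helicases of 60S assembly 4 were below and 3 above day 0 at day 6, with DDX24 level at -0.01. DDX54 had scaled signals of 285, 250, 155 and 156 at days 0, 2, 4 and 6, which is 1.83-fold lower at day 6 than at day 0. DDX27, which works with the PeBoW complex, had 1050, 864, 623 and 708, lowest at day 4, at log2 ratios of -0.28, -0.75 and -0.57. Its second probe set also lay below day 0 on each array, at log2 ratios of -1.01 and -0.59 at days 2 and 6 and at least 2.45-fold lower at day 4, where its signal was below background. DDX18, a dim member, had 70.2, 80.7, 31.7 and 107, and its day 4 signal was below background and at least 2.18-fold lower than day 0, while at day 6 it stood at 0.61.

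Other large subunit genes stayed near day 0 or above it. NOP2, an rRNA methyltransferase, had scaled signals of 1269, 1293, 1190 and 1272 at days 0, 2, 4 and 6. NOP16 had 1576, 1882, 1972 and 1945 and was above day 0 on all 3 later arrays, at log2 ratios of 0.26, 0.32 and 0.30. DDX31 was likewise above day 0 (0.43, 0.26 and 0.27), although its second probe set gave 0.09, 0.05 and -0.01. GNL3 (nucleostemin), a nucleolar GTPase of proliferating cells, had 2216, 2002, 1878 and 1840, and both its brighter probe sets lay below day 0 throughout, the second at -0.09, -0.36 and -0.15. RRP1B stood at -0.04, -0.18 and -0.08 on the log2 scale, but its second probe set at 0.29, 0.05 and 0.22.

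The snoRNP proteins were represented by 4 members. All 4 were below day 0 at days 4 and 6 (medians of -0.22 and -0.17), where 49.6% and 50.7% of all genes were. At day 6 NOP58 was level, at a log2 ratio of -0.0014. With spike-in scaling 0 and 2 of 4 were below day 0 at days 4 and 6, and with 75th percentile scaling 3 were at day 6. NOP58 and NOP56 form the core of the box C/D particles that guide rRNA methylation. NOP58 had scaled signals of 2222, 2141, 2127 and 2220 at days 0, 2, 4 and 6. NOP56 had 1097, 1141, 863 and 938, lower on the 2 last arrays, and its second probe set had 1023, 809, 621 and 791. DKC1 (dyskerin), the pseudouridine synthase of the box H/ACA particles and of telomerase, had 1702, 1618, 1576 and 1575. NOLC1 (Nopp140), a chaperone of both kinds of particle, was the lowest, with 735, 570, 585 and 513, or -0.37, -0.33 and -0.52 as log2 ratios. By its other kept probe set it lay below day 0 as well, at -0.11, -0.28 and -0.48.

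Among 3 abundant or regulatory nucleolar proteins, NPM1 and NCL were nearly level and MYBBP1A was lower. NPM1 (nucleophosmin), a histone and ribosome chaperone, had scaled signals of 6311, 7105, 6589 and 6441 at days 0, 2, 4 and 6, and log2 ratios of 0.17, 0.06 and 0.03. Its second probe set gave 0.20, 0.01 and 0.0062, while a much dimmer one scattered, at -1.28, 0.47 and -0.29. NCL (nucleolin) had 5176, 5855, 4669 and 5089, and was therefore above day 0 at day 2 and below it at day 4, by less than 1.5-fold each time. Its much dimmer second probe set was above day 0 throughout, at 0.44, 0.50 and 0.41.

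MYBBP1A, a nucleolar protein that binds MYB and acts on p53 and on RNA polymerase I transcription, stood furthest below day 0 of all tested members by its mean log2 ratio over the 3 later days (-0.75). Its scaled signals were 418, 300.1, 236 and 217 at days 0, 2, 4 and 6, lower on each array than on the one before. This is 1.39-fold, 1.77-fold and 1.93-fold lower than day 0. The second probe set had 250.1, 209.7, 164.5 and 197, with log2 ratios of -0.25, -0.60 and -0.35, so it had the same direction but a smaller difference at day 6.

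The helicases of splicing (10 members) had medians of 0.08, -0.09 and -0.22. Lower on each successive array were 3 of them (DDX17, DDX20 and DDX42), where 10.3% of all genes were. None of the 3 kept that order by its second probe set, which for DDX42 gave -1.23, -0.39 and 0.40. DDX17, a coregulator of transcription and splicing, had scaled signals of 1236, 1122, 840 and 787 at days 0, 2, 4 and 6. DDX5, its close paralogue, had 4905, 5349, 4819 and 4369. The log2 ratio at day 6 was -0.65 for DDX17 and -0.17 for DDX5, and the dimmer second probe set of DDX17 gave 0.88, 0.20 and -0.14.

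DDX20 (gemin3), part of the SMN complex that assembles spliceosomal snRNPs, had scaled signals of 484, 432, 386 and 269.9 at days 0, 2, 4 and 6, which is 1.79-fold lower at day 6 than at day 0. Its probe sets disagreed: the second stood at 0.38, 0.98 and 0.19 and the third at -0.31, -0.02 and -0.76. Some spliceosome genes were higher instead. DHX35 had 220, 309, 398 and 245, highest at day 4 at a log2 ratio of 0.86, and DHX8, which releases mRNA from the spliceosome, had 185, 243, 208 and 255 and a second probe set that was also above day 0 on all 3 arrays (0.35, 0.42 and 0.15), while its dimmest kept one stood at 0.14, -0.22 and -0.05. DHX15, which takes spent spliceosomes apart, was near level at 3435, 3830, 3840 and 3471.

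DHX36, a helicase that unwinds G-quadruplexes in RNA and DNA, was below day 0 at day 6 by every kept probe set. Its scaled signals were 1711, 1604, 1504 and 966 at days 0, 2, 4 and 6, so that by this probe set the first 3 arrays lay together and day 6 was 1.77-fold lower than day 0. The second probe set had 1216, 1042, 1100 and 572, which is 2.13-fold lower at day 6, again with the first 3 arrays together. Both dimmer kept probe sets were low by day 4 already, with log2 ratios of 0.21, -1.08 and -1.08 for one and -0.56, -1.14 and -0.65 for the other.

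The other helicases of mRNA export, translation and decay were close to day 0. DDX3X, a factor of translation initiation, had scaled signals of 3970, 4179, 4002 and 3456 at days 0, 2, 4 and 6. DDX1 had 1471, 1612, 1662 and 1672, and DDX19, of mRNA export, had 2242, 1878, 2237 and 2302. DDX6, of mRNA decay and storage, was lower on each successive array by a modest amount, with log2 ratios of -0.14, -0.24 and -0.44, but its second probe set gave 0.24, 0.28 and -0.20.

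**Figure D3:**
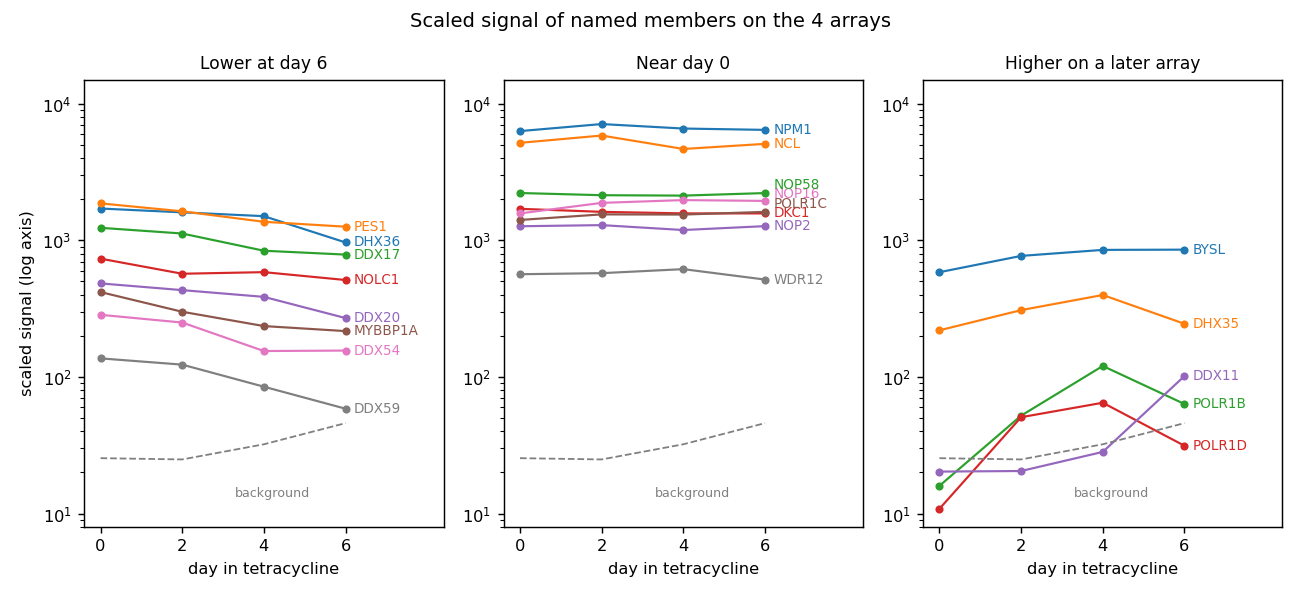
Scaled signal (log axis) of named members on the arrays of days 0, 2, 4 and 6, with the background of each array as a dashed line. Genes in the left panel are lower at day 6 (MYBBP1A at 217 against 418 at day 0), those in the middle are near day 0 (NPM1 at 6441 against 6311), and on the right POLR1B, POLR1D and DDX11 begin below background.

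Besides POLR1B, DDX59 and DDX11 were the members at least 2-fold from day 0 at day 6. DDX59, a DEAD-box helicase, had scaled signals of 137, 123, 84.9 and 58.6 at days 0, 2, 4 and 6, lower on each array than on the one before and 2.34-fold lower at day 6 than at day 0. Its second probe set had 74.3, 80.0 and 56.9 at days 0, 2 and 4 and lay under the background of day 6, a difference of at least 1.62-fold. DDX11, a DNA helicase of sister chromatid cohesion, was below background at days 0, 2 and 4 by its brightest probe set, which had 101.5 at day 6, at least 3.99-fold higher than day 0. None of its other probe sets passed the filter, and some went the opposite way: one had 69.9 and another 61.0 at day 0, and both were below background at day 6. A further one was higher, from 18.1 at day 0, below background, to 44.7 and 52.4 at days 4 and 6. It was at least 1.76-fold and 2.06-fold higher there than at day 0. The 3.99-fold difference rests on 1 probe set and 1 array, through which the gene also passed the filter. DDX28 and DHX30, helicases of mitochondrial RNA, were below day 0 at days 4 and 6 by both brighter probe sets but above it by the dimmest kept one. DDX28 had log2 ratios of -0.11, -0.58 and -0.17 at days 2, 4 and 6 by its brightest probe set and 0.06, -0.67 and -0.32 by its second. Its dimmest kept one gave 1.26, 1.95 and 2.11. DHX30 had 0.01, -0.23 and -0.43 by its brightest, -0.59, -1.15 and -1.03 by its second, and 1.88, 1.12 and 0.26 by its dimmest kept one.

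Helicases of the germ line and of RNA sensing gave too little signal to compare. DDX4 (the vasa homologue) and DDX43 were below background on all 4 arrays. DHX58 (LGP2) and DDX60, which act in the sensing of viral RNA, were above background at day 0 only by their brightest probe sets, at scaled signals of 31.4 and 29.2. A dimmer probe set of DDX60 had 44.1 at day 2. DDX25 was above it at days 2 and 6 only, at 37.0 and 46.5. No ratio is given for these 5 genes.

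Some members had a steady course over the 4 arrays. Lower on each successive array were 14 of 67 members, where 10.3% of all tested genes were, and higher on each successive array were 4 (BYSL, DDX1, DDX11 and NOB1), where 9.87% were. DDX11 was below background at days 0, 2 and 4 and passed the filter through day 6, so its order on the first arrays is not measured. The 14 are DDX6, DDX17, DDX20, DDX42, DDX59, DHX33, DHX36, DKC1, GNL3, MYBBP1A, PES1, RRP9, UTP6 and UTP11. The last step of DKC1 was only from a scaled signal of 1576 to 1575. The count of 14 depends on the scaling. It was 38 with the deposited values unscaled, where 28.2% of all genes were lower on each successive array. With spike-in scaling it was 2, where 3% of all genes were. By the second probe set it was 3 of 43 (DDX41, DDX55 and NOLC1), where 7.63% of all genes were. None of these is among the 14, so no member kept this order by both its brightest and its second probe set.

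A line through the 4 arrays gave no called member. In limma's fit of log2 signal on day, with Benjamini-Hochberg adjustment over all 8026 genes, 0 members passed an adjusted p of 0.05 in either direction, and 0% of all genes did. The lowest adjusted p among members was that of DDX59, at 0.163, with a slope of -0.21 per day on the log2 scale (SE 0.04). At an unadjusted p under 0.05 there were 7 members with a negative slope (DDX17, DDX20, DDX54, DDX59, DHX36, MYBBP1A and PES1), where 9.38% of all genes had one, and 1 with a positive slope (DDX11), where 9.06% had one. DDX11 was below background at days 0, 2 and 4 and passed the filter through day 6. Its slope rests on that array and cannot count as a measured course. The fit takes departures from a straight line as its error, which is not a spread between cultures. With an intensity-dependent prior (limma-trend), 3 of 67 members passed with negative slopes, where 346 of all 8026 genes did, a similar share. They were DDX17, DHX36 and PES1, at adjusted p of 0.034, 0.0333 and 0.0397. With positive slopes 0 members passed, where 258 of all genes did. The second probe sets of DDX17 and PES1 were above day 0 at days 2 and 4.

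Different probe sets of a gene give an internal check on how far a ratio depends on the probes. They share the RNA of each array, so they do not measure the error between arrays or days. Of the 67 tested members 43 had a second kept probe set, and its log2 ratio had the same sign as that of the brightest in 23, 28 and 27 of them at days 2, 4 and 6. The median absolute difference between both probe sets was 0.25, 0.23 and 0.27 on the log2 scale. For all 3577 genes with 2 kept probe sets this difference was 0.31, 0.38 and 0.41. The sign was the same in 2093, 2296 and 2402 of these 3577 genes, so the members did not stand out by sign. Both probe sets lay below day 0 on all 3 later days for 6 members (DDX27, DHX36, GNL3, MYBBP1A, NOLC1 and UTP14A), where 13% of all such genes did, and above it for 3 (DHX8, NOB1 and NPM1), where 15.3% did. The 6 are 14% of the members with a second probe set, a share near that of all genes.

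**Figure D4:**
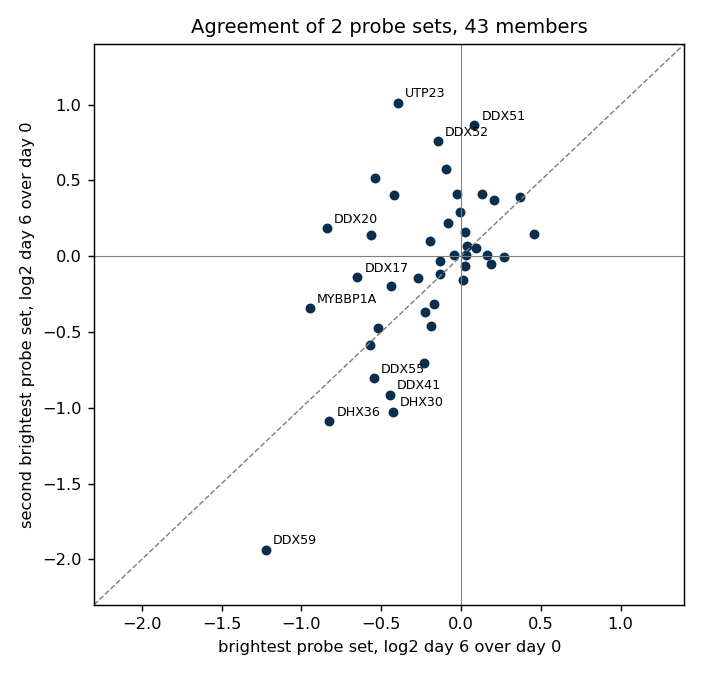
Log2 ratio of day 6 over day 0 by the brightest (horizontal axis) and the second brightest probe set (vertical axis) of 43 members, with equality as a dashed line. DHX36 and DDX59 are low by both, MYBBP1A is low by both but less so by the second, and DDX20 and UTP23 are on opposite sides of 0.

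The remaining machinery, taken from a list of pathway genes outside the naming rule, gave similar values. Of 110 tested genes 0 were at least 2-fold higher than day 0 on any later day. Of all tested genes 2.42%, 5.77% and 8.48% were at days 2, 4 and 6. At least 2-fold lower were 2, 1 and 4 at days 2, 4 and 6, where 2.97%, 5.12% and 8.35% of all genes were. On all 3 days 0 were 2-fold lower, where 0.411% of all genes were. One of the 2 at day 2, METTL5, was below background there and by bound missed 2-fold. Their median log2 ratios were 0.03, -0.09 and -0.12 at days 2, 4 and 6, close to the members' own. The 7 further RNA polymerase I factors had medians of 0.04, -0.20 and -0.23, the 37 small subunit factors -5.98e-05, -0.01 and -0.06, the 38 large subunit factors 0.06, -0.15 and -0.07, and the 28 snoRNP, exosome and rRNA modification factors 0.06, -0.10 and -0.25. The 5 RNA polymerase I members had medians of 0.14, 0.28 and 0.37 instead, with POLR1B and POLR1D near background. Above day 0 at days 4 and 6 were 4 and 5 of these members, against 0 and 2 of the 7 further factors. POLR1B and POLR1D passed the filter through their brighter later arrays, so these medians and counts cannot show a difference from the further factors. POLR1A, POLR1C and POLR1E had log2 ratios of -0.27, 0.13 and 0.28 at day 4 and 0.02, 0.20 and 0.37 at day 6. POLR1D was below background at both days 0 and 6. Without scaling of the arrays, 2 of the 5 members stood above day 0 at day 6.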

How the data were processed

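The authors deposited 1 linear signal intensity per probe set and array, made with GeneChip Operating Software 1.3 per the labels' series description, on the GeneChip Chicken Genome Array. How that software computed and scaled the signal is not stated in the labels. Of 38535 probe sets, 96 controls were left out, and 16658 whose mean log2 intensity reached the median of all values (29.1) were kept. Arrays were scaled to a common median over these by factors of 0.859, 0.962, 1.02 and 1.19 for days 0, 2, 4 and 6, and signals under the 40th percentile of scaled values (19.4) were set to it before taking ratios. Gene symbols came from GEO's platform annotation, where 27168 had 1 symbol, 177 had several and 11094 were not listed. All 72 member symbols are also in the RefSeq table of GRCg7b. Precision is limited by the number of arrays. With 1 array per day, genes were counted at a 2-fold difference and no test between days was made. The trend over days used limma 3.58.1 in R 4.3.3 (2-sided), checked on simulated data, and other steps ran in Python 3.11.15 with pandas 2.3.3. Named genes were all RNA polymerase I, snoRNP core and individually listed members, the 8 highest and 8 lowest mean ratios, members 2-fold different at day 6, and the largest day 6 ratio of each role; others were named after their values were seen. The members, role lists and tests were chosen with earlier results of these data known. Alternatives were other scalings, filters, floors, probe sets and trend settings.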

Additional observations from a re-analysis of the deposited data

How the results depend on the processing

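Over 9 alternatives planned for the ratios and 2 added after seeing the data (members above background, second probe sets), the members' median relative to all tested genes kept its sign. It ranged from 0.01 to 0.05 on the log2 scale at day 2, from -0.20 to -0.10 at day 4 and from -0.12 to -0.03 at day 6. A single factor per array cancels in this difference. The unscaled, 75th percentile scaling and spike-in settings could therefore hardly move it and are no check on it. The small counts of 2-fold different members moved more. With the deposited values unscaled, 3 members were lower at day 4 and 11 at day 6, and 38 were lower on each successive array. With spike-in scaling 0 were lower at day 4 and 2 were lower on each successive array, where 3% of all genes were. Without a filter on dim probe sets 4 members were higher at day 6. With the filter at the 75th percentile 0 were higher or lower at days 2, 4 and 6, where 1.34%, 4.81% and 10.3% of all genes were either. A pseudocount of 29.1 in place of the floor left 0 higher at day 2 and 0 lower at days 4 and 6, and averaging the probe sets of each gene gave 2 lower at day 4. Among members above background on all arrays 0 were higher at days 2, 4 and 6 and 0 lower at day 4. With folds bounded by background, also added later, 1 member was higher at day 2, where 1.93% of all genes were. The 2-fold share of all genes is not given for the remaining alternatives. By the second brightest probe set 0 of 43 were higher at days 2 and 4 and 1 at day 6, while 2, 2 and 3 were lower at days 2, 4 and 6 and 3 were lower on each successive array. The cause of these differences was not tested, apart from fewer or dimmer genes entering by construction. The trend fit called 0 members rising and 0 falling without each array in turn and under the other settings, except 3 falling with limma-trend. In the main fit and without each array in turn 0 of all 8026 genes were called, so those fits say nothing particular about the members. With spike-in scaling 56 of all 8026 genes were called rising and 32 falling. No paired analysis was possible because each day has a single array. Signals near background limit POLR1B, POLR1D, DDX11 and DDX18, and DDX59 at day 6.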

Other observations

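Outside the naming rule, a few genes of RNA processing were 2-fold lower on a later array and were named after their values were seen. EXOSC6, a subunit of the RNA exosome, stood at log2 ratios of -1.79 and -0.19 at days 2 and 4 and lay under background on the last array, a difference from day 0 of at least 2.47-fold. ZNHIT6, which helps assemble box C/D snoRNPs, stood at -0.70, -1.40 and -1.27 at days 2, 4 and 6. ZCCHC4, a methyltransferase of 28S rRNA, stood at -0.60 and -0.01 at days 2 and 4 and lay under background on the last array, a difference of at least 2.28-fold. SRFBP1 stood at -0.13, -0.49 and -1.03. METTL5, a methyltransferase of 18S rRNA, lay under background at day 2, a difference of at least 1.99-fold, and stood at 0.48 and 0.33 at days 4 and 6. ZNHIT6 was low on both of the last 2 arrays, while EXOSC6 and ZCCHC4 were back near day 0 at day 4.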
